A study of Homo sapiens with 6 samples.

Results

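The genes of DNA replication were followed in HT29, a cell line from a human colon adenocarcinoma, grown with or without NS398, which inhibits cyclooxygenase-2 selectively. The set holds 55 genes of 19775 measured, chosen by name for their roles in origin licensing, the replicative helicase, the polymerases with their clamp, the protection of the fork and the supply of nucleotides. They are read by 107 of the 54675 probe sets of the HG-U133 Plus 2.0 array, namely those whose annotation names 1 of these genes alone. Both groups were cells of the same line in serum-free medium for 72 h: 3 samples received 100 µM NS398 in DMSO and 3 received the DMSO vehicle, and each sample was hybridised to 1 array. The 3 samples per group were biological replicates by the methods of the study. It is not in the labels whether each was a culture of its own. The p-values set a difference only against the spread among these samples. For the genes, that spread is estimated with help from other probe sets of like signal.

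Directions follow the deposited labels, and "NS398 arrays" means the arrays labelled NS398-treated. They are opposite to the direction that the study states for many of these same genes. The signals alone cannot tell which of them is right, and if the labels were exchanged every sign given here would turn. A separate readout of the study, the MTT assay of viable cells, showed less proliferation of this line under NS398. Values are linear probe set signals, given for replicates 1, 2 and 3 in that order. Each difference is the mean log2 signal of the NS398 arrays minus that of the control arrays, ± the standard error (SE) of the limma fit (n = 3 per group), so that -1 is a halving, and a gene is said to have fallen or risen only where its Benjamini-Hochberg adjusted p over all probe sets was below 0.05. Each gene is read from its brightest probe set unless others are named. The arrays were scaled to the same trimmed mean of 500, and their median signals lay between 65.0 and 80.2. Of 8 epithelial markers 6 were bright (a mean log2 signal above 7), and the summed signal of the epithelial list was 100576 to 115332 in control and 110280 to 114934 in NS398 arrays. That sum is mostly KRT18, EPCAM and KRT8, whose groups overlapped. The dim markers of this list were CDX2 (21.4 to 89.5 over all arrays) and CDH17 (12.2 to 100.9), with overlapping groups too. VIL1, which encodes villin of the brush border, fell (-0.71 ± 0.13, adjusted p = 0.00895), and KRT19 (-0.39 ± 0.17) and CDH1 (-0.21 ± 0.09) did not pass but had every NS398 array below every control array. Of 8 fibroblast markers 1 was bright, with summed signals of 673 to 975 in control and 890.2 to 1050.3 in NS398 arrays, and LUM, which was dim in control arrays, rose with a difference of 2.24 ± 0.38. Of 6 endothelial markers 1 was bright (247 to 375 and 279 to 367), and of 6 leukocyte markers 2 were, nearly all of the sum of 25669.5 to 32569 and 28844 to 33873 being LYZ. No marker was at 0 in any array. RNA integrity was read from the signal of the 3' control probe set of a transcript over that of the 5' one. For ACTB this ratio stood at 1.29 ± 0.030 in the control group and 1.56 ± 0.13 in the NS398 group (SD, n = 3; two-sided exact permutation test, p = 0.1, which is the smallest value for 6 arrays). That of GAPDH was 1.03 ± 0.055 and 1.10 ± 0.090 (exact permutation p = 0.5), and the mean signal of the 18S rRNA control probe sets was 2477 ± 923 and 6296 ± 4542 (SD, n = 3, exact permutation p = 0.3). Their part in the differences of the replication genes was not tested.

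Replication begins in G1 phase, when the origin recognition complex (ORC), CDC6 and CDT1 load the MCM2-7 ring onto DNA, a step known as licensing. In S phase kinases turn loaded rings, though not all of them, into the CMG helicase (CDC45, MCM2-7 and GINS). This helicase unwinds the fork for the DNA polymerases, and the clamp PCNA holds these on the template. Many of these genes are known targets of the E2F transcription factors and peak around the entry into S phase, whereas several ORC subunits are present at nearly constant levels through the cycle. The signals come from whole cultures, in which fewer cells in S phase and less transcript in each cell cannot be told apart.

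Most replication genes were lower in the NS398 arrays. Of 55 members 35 (63.6%) fell and 0 rose, whereas 4.85% of all 19775 genes fell and 5.23% rose. The set was chosen with earlier results of these data known, so this contrast is not independent of them. The members were also brighter than most genes: 53 of 55 were bright, against 10668 of all 19775. Dim probe sets seldom passed, and the share of all bright genes that fell is not given here. Among bright genes the median difference was -0.90 for members and 0.01 for all. The median difference of the 55 members was -0.91, against 0.06 for all genes, and 51 members had a negative difference. In 19 members the decrease passed the test and was at least 2-fold, which was so for 1.8% of all genes. All 3 NS398 arrays lay below all 3 control arrays in 44 members, which was so for 13.5% of all genes, and above them in 1, ORC5, which was so for 17.2% of all genes. The differences of the 35 members that fell ran from -2.36 (RRM2) to -0.57 (MCM8). In the 20 others they ran from -1.30 to 0.35 with a median of -0.20, and 9 of these 20 still had all NS398 arrays below the control arrays.

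These calls rest on a fit of limma in which the prior variance follows the signal level (variance trend). With 1 variance prior for bright and dim probe sets alike, limma called 0 of the 55 members after adjustment (40 lower and 0 higher at an unadjusted p under 0.05, smallest adjusted p = 0.0706). The same plain fit over bright probe sets alone, an alternative chosen after seeing the data, called 35 of 53 members lower. These are not all the same 35 genes, since CLSPN and GINS4 are dim and were left out of that fit. The count of 35 was 21 without NS398 replicate 1 and between 27 and 31 without any other single array.

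**Figure D1:**
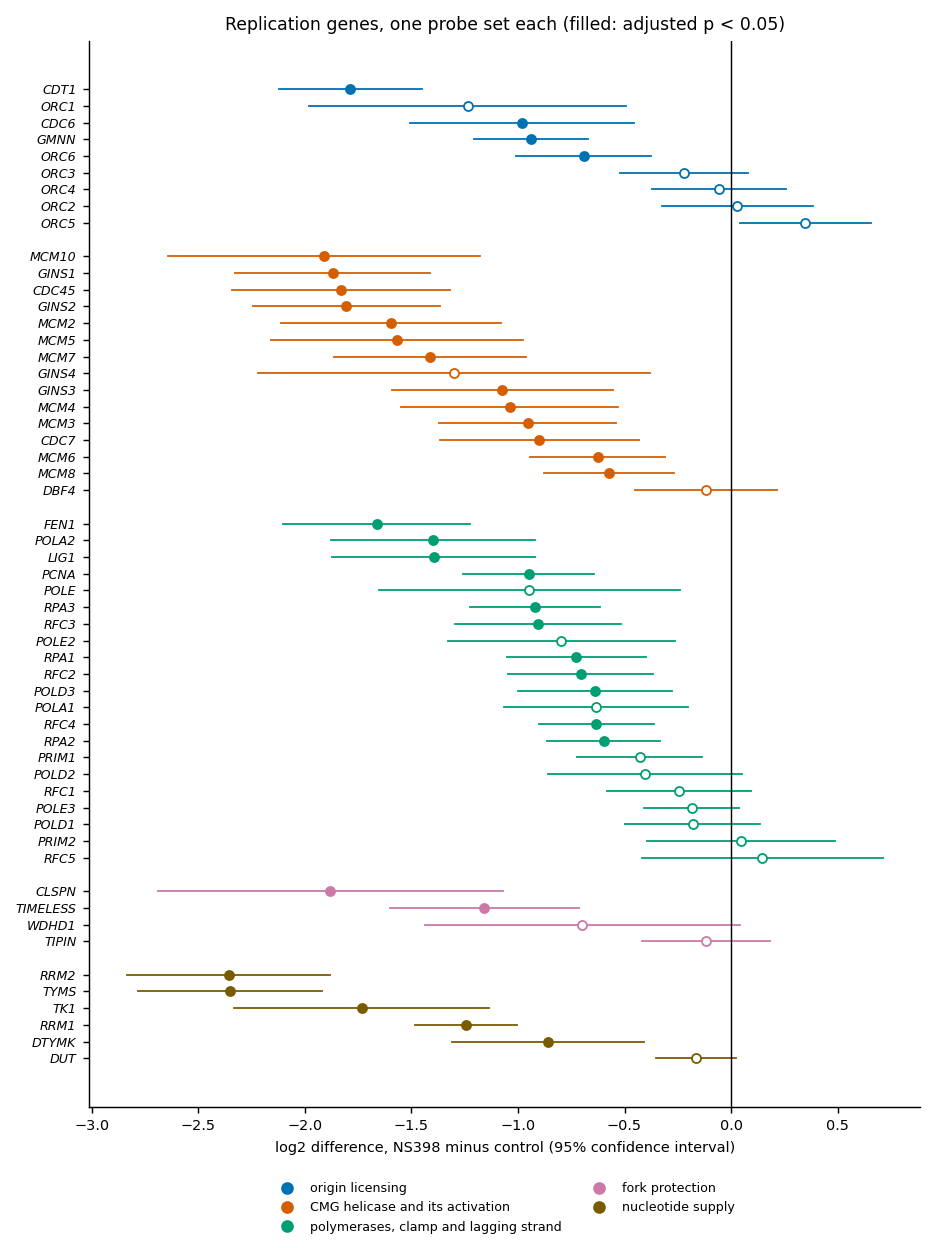
Difference of each replication gene on the log2 scale (x axis, NS398 minus control, with its 95% confidence interval), grouped and coloured by step. Filled points passed an adjusted p of 0.05, and all 35 of them lie left of 0. Open points near 0 are ORC2 to ORC4, DBF4, PRIM2, RFC1, RFC5, POLD1, POLE3, TIPIN and DUT. ORC5 lies right of 0 with an interval of 0.04 to 0.65 and was not called.

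The promoters of several of these genes carry letters that E2F factors are known to bind. RefSeq promoter entries (GRCh38.p14, 250 bases before and 50 after a start site) were found for 49 of the 55 members, 67 entries in all, and not for GINS4, MCM4, MCM5, POLD3, RPA2 and RPA3. They were searched on both strands for TTTCCCGC, TTTCGCGC, TTTGCCGC and TTTGGCGC, spellings of the E2F consensus, whose matches on opposite strands can overlap, as in MCM6. One of them was present in 24 of the 67 entries (35.8%), against 3.31% of all 35116 entries and 4.07% of the 21490 entries of genes with a probe set. Among members that fell it was present in 18 of 39 entries (46.2%), and among members that were not called in 6 of 28 (21.4%). Counted by gene these were 18 of 30 (60%) and 6 of 19 (31.6%). For genes outside the set the shares were 6.80% of entries where the gene fell and 3.84% where it was not called. The sequence CCAAT, which NF-Y is known to bind, was present in 50.7% of the members' entries and 34.6% of all, and TTTGAA, the core of the cell cycle homology region of late cell cycle genes, in 5.97% and 15.2%. These shares are descriptions of a window, and no match says only that these letters are not in it. The 100 bases that follow are shown, 5' to 3' on the strand of the gene and ending at the base before the start site (for MCM6, 61 bases before it), for the member that fell most in its step among those with a match in that stretch, for MCM6 as an entry with 4 matches, and for RRM2 as the member with the largest difference on its brightest probe set, which has none. Capitals mark the E2F matches on either strand.
CDT1 (chr16:88803689-88803788, + strand): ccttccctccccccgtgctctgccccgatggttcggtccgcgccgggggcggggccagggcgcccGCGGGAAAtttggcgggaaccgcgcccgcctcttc
GINS2 (chr16:85688955-85689054, - strand): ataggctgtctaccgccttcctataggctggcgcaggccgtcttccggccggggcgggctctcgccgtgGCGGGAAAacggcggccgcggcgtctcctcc
POLA2 (chr11:65261862-65261961, + strand): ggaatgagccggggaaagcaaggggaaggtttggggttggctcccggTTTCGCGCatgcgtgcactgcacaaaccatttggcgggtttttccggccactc
TYMS (chr18:657553-657652, + strand): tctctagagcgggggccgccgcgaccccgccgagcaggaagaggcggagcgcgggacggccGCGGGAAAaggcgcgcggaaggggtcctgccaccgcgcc
MCM6 (chr2:135876504-135876603, - strand): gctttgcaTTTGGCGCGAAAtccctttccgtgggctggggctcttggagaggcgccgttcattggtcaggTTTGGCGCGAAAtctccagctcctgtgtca
RRM2 (chr2:10122639-10122738, + strand): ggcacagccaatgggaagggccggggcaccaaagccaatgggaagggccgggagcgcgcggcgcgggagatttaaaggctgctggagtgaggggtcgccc

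In origin licensing the loading factors fell and most subunits of ORC were not called. Of 9 genes 4 fell (CDT1, CDC6, GMNN and ORC6) and 0 rose, with a median of -0.69. CDT1, which brings the MCM ring to ORC and whose promoter match is shown above, had signals of 1688, 1459.5 and 1434 in the control arrays and 399.6, 420.5 and 512 in the NS398 arrays. On this probe set the arrays of each group lay close together with a wide gap between the groups. CDT1 fell 3.45-fold on it (difference -1.79 ± 0.15, adjusted p = 7.63e-05). A second bright CDT1 probe set spread more, with 1575, 1099.6 and 1072 in the control arrays and 264.6, 766 and 591 in the NS398 arrays. That one fell by less in its estimate (-1.32 ± 0.33, adjusted p = 0.0349). GMNN encodes geminin, the inhibitor that binds CDT1 outside G1 phase. Its signals were 4872, 4355 and 4599.6 in the control arrays and 2153, 2807 and 2292 in the NS398 arrays, and it fell too, by less (-0.94 ± 0.12, adjusted p = 0.00100). CDC6, the ATPase that joins ORC to load the ring, had 1673, 986 and 1248 in the control arrays and 469.5, 870.3 and 656 in the NS398 arrays. The groups did not overlap, although NS398 replicate 2 came near to control replicate 2, and CDC6 fell with a difference of -0.98 ± 0.24 (adjusted p = 0.0334); its second probe set fell by 1.29.

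Within ORC, the complex that marks origins, ORC6 was the only subunit that passed the test. ORC6 had 1322, 1354 and 1078 in the control arrays and 706, 799 and 814 in the NS398 arrays and fell 1.61-fold (-0.69 ± 0.14, adjusted p = 0.0153). ORC1, the subunit whose level is known to rise and fall with the cycle, had 488, 242 and 284 in the control arrays and 89.4, 188 and 153 in the NS398 arrays. Its difference of -1.24 ± 0.34 was larger than that of ORC6 with a wider error and did not pass (adjusted p = 0.0552); it passed under 4 of 15 alternative settings. ORC2 had 972, 735 and 919 in the control arrays and 1023, 794 and 859 in the NS398 arrays, with full overlap and a difference of 0.03 ± 0.16 (95% interval -0.32 to 0.38). The direction for ORC2 turned to -0.09 when each array was centred on its median. ORC4 had 1863, 2373 and 2273 in the control arrays and 2278, 2237 and 1746 in the NS398 arrays, a difference of -0.06 ± 0.14 (95% interval -0.37 to 0.26), and its groups overlapped too. For ORC3 the signals were 826, 952 and 939 in the control arrays and 799, 737 and 794 in the NS398 arrays, all NS398 arrays below all control arrays by a narrow margin (-0.22 ± 0.14, 95% interval -0.52 to 0.08, adjusted p = 0.444). ORC5, with 912, 1168 and 1133 in the control arrays and 1301, 1460.4 and 1308 in the NS398 arrays, was the only member with every NS398 array above every control array (0.35 ± 0.14, adjusted p = 0.203). On these brightest probe sets the intervals of ORC2 to ORC5 reached no lower than -0.52 and no higher than 0.65. A halving or a doubling thus lies outside them. Second bright probe sets had lower estimates and did not pass. They were -0.36 ± 0.18 for ORC2 (95% interval -0.76 to 0.04), -0.26 ± 0.18 for ORC4 (-0.66 to 0.13) and 0.11 ± 0.18 for ORC5 (-0.30 to 0.51). Without NS398 replicate 1 the number of licensing genes that fell was 2.

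Nearly the whole CMG helicase fell. All 11 of its subunits had every NS398 array below every control array, and 10 of them fell, GINS4 being the exception. CDC45, the factor that completes the active helicase, had 1686, 1264 and 1082 in the control arrays and 264, 473 and 409.7 in the NS398 arrays, and fell 3.56-fold (-1.83 ± 0.23, adjusted p = 9.22e-04). NS398 replicate 1 was the lowest array and control replicate 1 the highest. The GINS complex links CDC45 to the ring. Its subunit GINS1 had 1619, 1316 and 1422 in the control arrays and 279, 482 and 461 in the NS398 arrays (-1.87 ± 0.21, adjusted p = 4.25e-04), and GINS2 had 1436, 960.4 and 985 in the control arrays and 262, 348 and 349 in the NS398 arrays (-1.81 ± 0.20, adjusted p = 4.10e-04). Their intervals, -2.33 to -1.41 for GINS1 and -2.24 to -1.37 for GINS2, overlap. GINS3 fell by less in its estimate (-1.07 ± 0.24, adjusted p = 0.0200). GINS4 was dim, with 118, 111 and 99.0 in the control arrays and 31.0, 46.6 and 60 in the NS398 arrays, and its difference of -1.30 ± 0.42 did not pass (adjusted p = 0.102).

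All 6 subunits of the MCM2-7 ring fell, with a median of -1.23. MCM2 had 8139, 4345 and 4787 in the control arrays and 1348, 2178 and 2088 in the NS398 arrays and fell most in its estimate (-1.60 ± 0.24, adjusted p = 0.00225). MCM5 followed (-1.57 ± 0.27, adjusted p = 0.00534), then MCM7 (-1.41 ± 0.20), MCM4 (-1.04 ± 0.23) and MCM3 (-0.95 ± 0.19). This order depends on the probe set. Other probe sets of MCM5 (-1.72 ± 0.23) and MCM4 (-1.64 ± 0.33 and -1.62 ± 0.30) fell by more than MCM2 in their estimates. Further ones of MCM4, MCM6 and MCM7 did not. MCM6, whose promoter window holds the most E2F matches of those shown, had 4912, 3715 and 4185 in the control arrays and 2276, 3085 and 2962 in the NS398 arrays and the smallest decrease of the ring (-0.63 ± 0.14, 95% interval -0.94 to -0.31, adjusted p = 0.0251). The interval of MCM2, -2.11 to -1.08, does not overlap that of MCM6, but whether subunits of the ring differ from each other was not tested.

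Of the factors that act on the ring, MCM10 and CDC7 fell and DBF4 did not pass. MCM10, which is needed for the helicase to start unwinding, had 772, 457 and 509 in the control arrays and 88.7, 166 and 229 in the NS398 arrays and fell 3.76-fold (-1.91 ± 0.33, adjusted p = 0.0058), and its 2 other probe sets fell as well. CDC7, the catalytic subunit of the kinase that phosphorylates the ring, had 1021, 618 and 688 in the control arrays and 344, 478 and 406 in the NS398 arrays and fell (-0.90 ± 0.21, adjusted p = 0.0286). DBF4, its activating subunit, had 1318, 1373 and 1576 in the control arrays and 1095, 1551 and 1321 in the NS398 arrays. These groups overlapped, with a difference of -0.12 ± 0.15 and an interval of -0.45 to 0.22; whether CDC7 and DBF4 differ from each other was not tested. MCM8, a relative of the ring that acts in recombination, had 866, 978 and 866 in the control arrays and 622, 615 and 582 in the NS398 arrays and showed the smallest of the 35 decreases (-0.57 ± 0.14, adjusted p = 0.0322); it kept its call in 8 of 15 alternative settings. Over the helicase and its activators 13 of 15 genes fell, or 7 without NS398 replicate 1 and 8 without NS398 replicate 3.

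Among polymerases, clamp and lagging-strand factors 11 of 21 fell and 0 rose, with a median of -0.64. Enzymes that finish Okazaki fragments, the short pieces of the lagging strand, were among those that fell. FEN1, the nuclease that trims their ends, had 4856, 3754 and 5205 in the control arrays and 1083, 1966 and 1405 in the NS398 arrays and fell 3.17-fold (-1.66 ± 0.20, adjusted p = 6.66e-04). LIG1, the ligase that seals them, had 1359, 789 and 870.2 in the control arrays and 318, 370.1 and 434 in the NS398 arrays (-1.40 ± 0.22, adjusted p = 0.00300). PCNA, the sliding clamp that both enzymes bind, had 7862, 7236 and 8351 in the control arrays and 3305, 4955 and 4018 in the NS398 arrays and fell 1.93-fold (-0.95 ± 0.14, adjusted p = 0.00215). In each of these genes the NS398 arrays lay well below the control arrays, and the lowest of them was replicate 1.

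Of the polymerase subunits themselves few passed. In polymerase alpha-primase, which lays the primers, POLA2, the regulatory subunit, had 1446, 859 and 1055 in the control arrays and 328, 489 and 447 in the NS398 arrays and fell (-1.40 ± 0.22, adjusted p = 0.00296). The catalytic subunit POLA1 (-0.63 ± 0.20, adjusted p = 0.0891) and the primase PRIM1 (-0.43 ± 0.13, adjusted p = 0.0917) did not pass, though neither had overlapping groups. PRIM2, the large primase subunit, had 398, 300 and 317 in the control arrays and 349, 398 and 300.1 in the NS398 arrays on the probe set that names it alone, with a difference of 0.05 ± 0.20 (95% interval -0.39 to 0.49). Another 4 probe sets name PRIM2 together with its pseudogene PRIM2BP and were left out by the rule. One of these, with signals of 361, 297 and 279 in the control arrays and 108, 111 and 118 in the NS398 arrays, fell (-1.47 ± 0.23, adjusted p = 0.00331), and another, with 724, 531 and 429 in the control arrays and 340.4, 342 and 224 in the NS398 arrays, had a difference of -0.89 ± 0.24 (adjusted p = 0.0538), so that the reading for PRIM2 depends on the probe set. In polymerase delta, the main enzyme of the lagging strand, the accessory subunit POLD3 fell (-0.64 ± 0.16, adjusted p = 0.0426; called in 7 of 15 alternative settings). The catalytic subunit POLD1 had 1081, 889 and 961 in the control arrays and 767, 902 and 916 in the NS398 arrays, with overlapping groups, a difference of -0.18 ± 0.14 and an interval of -0.50 to 0.14, and POLD2 had -0.40 ± 0.21 (adjusted p = 0.341). In polymerase epsilon, the main enzyme of the leading strand, 0 of 3 subunits passed. POLE had -0.95 ± 0.32 (adjusted p = 0.124), POLE2 -0.80 ± 0.24 (adjusted p = 0.0849) and POLE3, which is also a subunit of chromatin remodellers, -0.18 ± 0.10 (adjusted p = 0.377), all with every NS398 array below every control array.

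The single-strand binding protein RPA, which coats the unwound template, fell in all 3 subunits: RPA3 by -0.92, RPA1 by -0.73 and RPA2 by -0.60 as signed differences, with SE of 0.14, 0.15 and 0.12 (adjusted p = 0.00248, 0.0136 and 0.0132). In the clamp loader, which opens PCNA, RFC3 (-0.91 ± 0.18), RFC2 (-0.71 ± 0.15) and RFC4 (-0.63 ± 0.12) fell. The large subunit RFC1 did not pass (-0.25 ± 0.15, adjusted p = 0.450). RFC5 was not called on its brightest probe set, with 748, 1695 and 1486 in the control arrays and 1532, 1408 and 1184 in the NS398 arrays (0.15 ± 0.26, 95% interval -0.42 to 0.71), where control replicate 1 stood apart from the others of its group. Its 2 other probe sets fell, with 1568, 1488 and 1388 in the control arrays and 622, 898 and 726 in the NS398 arrays on one (-1.0 ± 0.16, adjusted p = 0.00305) and a difference of -1.04 ± 0.18 on the other. The number of genes that fell in this step was 6 without NS398 replicate 1, and 7 when all probe sets of a gene were averaged.

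**Figure D2:**
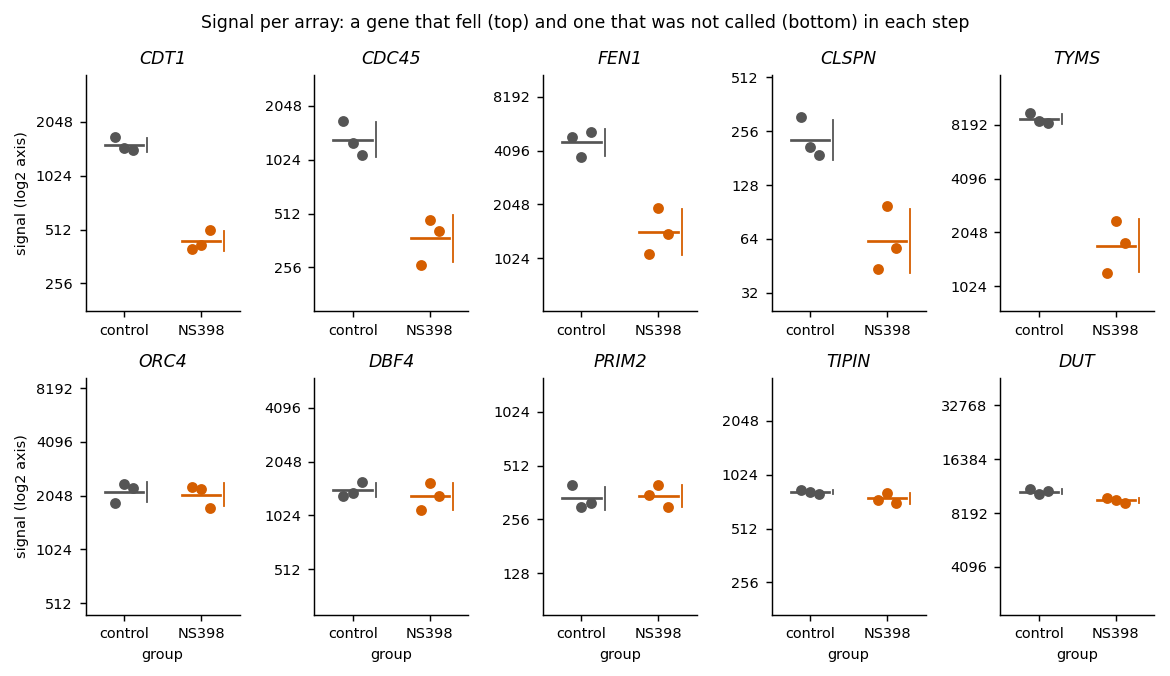
Signal in each array (y axis, log2 scale with the same span in every panel) for a gene that fell and a gene that was not called in each step, by group (x axis). Points are single arrays, horizontal lines geometric means and vertical bars 1 SD of the log2 signal; the top row shows separate groups, and below it only DUT does.

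Of 4 genes that protect or couple the fork 2 fell. CLSPN encodes claspin, which carries the checkpoint signal to CHK1, and had 307, 209 and 189 in the control arrays and 43.6, 97.7 and 57.0 in the NS398 arrays. It fell 3.68-fold (-1.88 ± 0.37, adjusted p = 0.0109), but its mean log2 signal lay just under 7 and its 3 other probe sets, all dim, did not pass. TIMELESS, a scaffold that travels with the fork, had 2051, 1264 and 1576 in the control arrays and 565, 766 and 848 in the NS398 arrays and fell 2.23-fold (-1.16 ± 0.20, adjusted p = 0.00575). TIPIN, its binding partner, had 845, 815 and 796 in the control arrays and 737, 814 and 715 in the NS398 arrays. Those groups overlapped, and the difference of -0.12 ± 0.14 had an interval of -0.42 to 0.18. WDHD1, which ties polymerase alpha to the helicase, had 226, 184 and 212 in the control arrays and 135, 198 and 78.1 in the NS398 arrays and a difference of -0.70 ± 0.34 that did not pass (adjusted p = 0.304). When all probe sets of a gene were averaged, 0 of the 4 passed, and among bright probe sets alone only TIMELESS did.

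Of the 6 genes of nucleotide supply 5 fell (median -1.49), and read from brightest probe sets RRM2 and TYMS had the 2 largest decreases of the set. RRM2, the small subunit of ribonucleotide reductase, which makes deoxyribonucleotides, had 8305, 5511 and 6055 in the control arrays and 898, 1699 and 1346 in the NS398 arrays. It fell 5.13-fold (-2.36 ± 0.22, adjusted p = 1.36e-04). RRM1, the large subunit of the same enzyme, had 6807, 6935 and 6285 in the control arrays and 2553, 2769.7 and 3154 in the NS398 arrays and fell 2.37-fold (-1.24 ± 0.11, adjusted p = 9.18e-05). A second bright RRM1 probe set fell by more (-1.53 ± 0.18), and its interval of -1.92 to -1.14 overlaps that of RRM2, -2.84 to -1.88, whereas that of the brightest RRM1 probe set, -1.48 to -1.0, does not. Whether the subunits differ from each other was not tested. TYMS, thymidylate synthase, the target of fluorouracil, had 9551, 8582 and 8371 in the control arrays and 1213, 2382 and 1783 in the NS398 arrays. Its decrease, 5.11-fold, lay close to that of RRM2 (-2.35 ± 0.20, adjusted p = 6.60e-05), and a second bright probe set fell by 2.33. TK1, the cytosolic thymidine kinase that salvages thymidine, had 5176, 2664 and 3217 in the control arrays and 776, 1592 and 976 in the NS398 arrays and fell 3.33-fold (-1.73 ± 0.27, adjusted p = 0.00317). Its other bright probe set, with 4331, 2100.4 and 2133 in the control arrays and 415, 638 and 545 in the NS398 arrays, fell 5.12-fold (-2.36 ± 0.26), as far as RRM2 in its estimate, and with all probe sets averaged TK1 (-2.05) stood below TYMS (-1.73), which has a dim probe set that did not pass. DTYMK, which phosphorylates the product of both TYMS and TK1, had 3062, 2184 and 2831 in the control arrays and 1034, 1758 and 1739 in the NS398 arrays and fell by less in its estimate (-0.86 ± 0.21, adjusted p = 0.0295; called in 11 of 15 alternative settings). DUT, the dUTPase that keeps uracil out of DNA, had 11178, 10437 and 10828 in the control arrays and 9915, 9743 and 9279.6 in the NS398 arrays on its brightest probe set. The groups did not overlap, yet the difference of -0.16 ± 0.09 was small and did not pass (95% interval -0.35 to 0.02, adjusted p = 0.343). Another DUT probe set, with 1632, 1365 and 1460.1 in the control arrays and 581, 872 and 718 in the NS398 arrays, fell (-1.05 ± 0.17, adjusted p = 0.00313).

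The arrays of a group did not stand alike. Over the 35 genes that fell, control replicate 1 was the highest control array in 30 and NS398 replicate 1 the lowest NS398 array in 31. The mean log2 signal of these 35 genes was 11.22, 10.75 and 10.85 in the control arrays and 9.40, 9.89 and 9.78 in the NS398 arrays. The arrays numbered 1 thus lay farthest from the opposite group on both sides. The gap between the nearest arrays of the 2 groups was larger than the range within either group. These genes were picked for a difference between the groups, however, so their gap is no separate sign of separation. Over all members of the set, called or not, the means were 10.77, 10.40 and 10.49 in the control arrays. They were 9.40, 9.81 and 9.67 in the NS398 arrays, a narrower gap that was still wider than the range within either group. The same order held in the means of each step: for nucleotide supply they were 12.72, 12.35 and 12.46 in control and 10.71, 11.34 and 11.12 in NS398 arrays, and for origin licensing 10.37, 10.19 and 10.24 against 9.52, 9.77 and 9.66. NS398 replicate 1 had the lowest ACTB ratio of its group (1.45, against 1.51 and 1.71 in replicates 2 and 3) and the highest 18S signal (11195, against 5467 and 2225). Whether these bear on its lower replication signals was not tested.

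**Figure D3:**
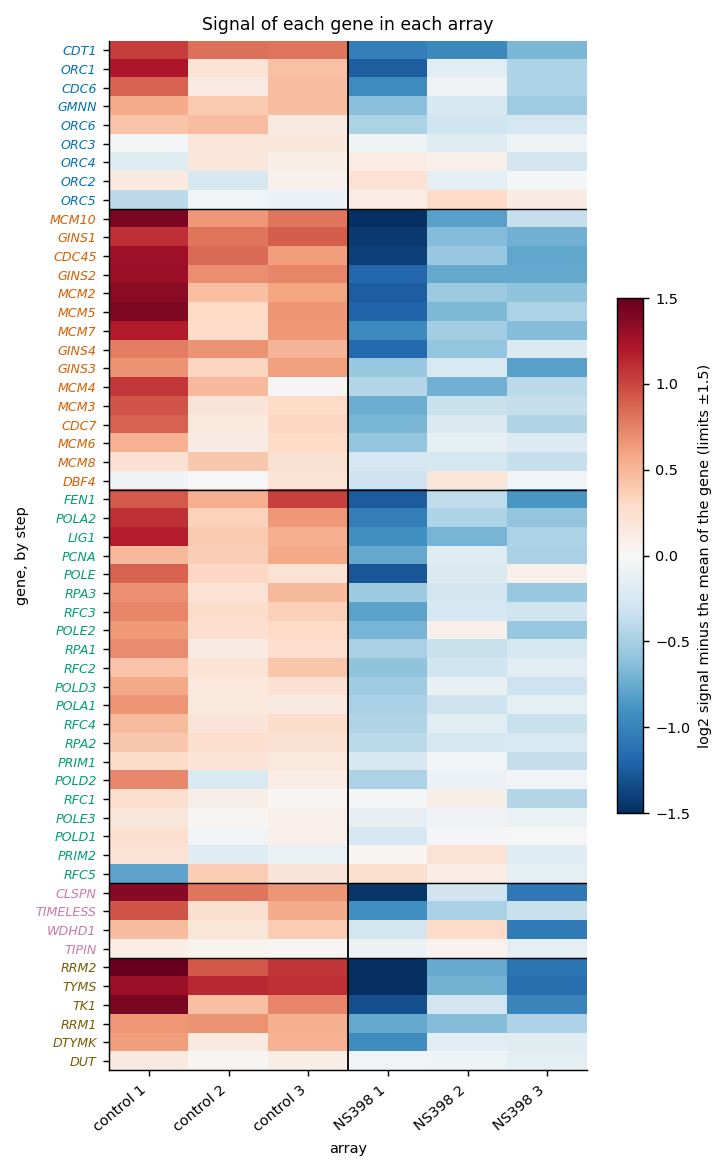
Signal of the 55 genes (rows, by step, ordered by difference) in the 6 arrays (columns), as the log2 signal minus the mean of the gene. Nearly all rows turn from red in control to blue in NS398 arrays, with the deepest colours in control replicate 1 and NS398 replicate 1, while ORC2 to ORC5, DBF4, PRIM2 and TIPIN stay pale.

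Probe sets of 1 gene did not always have the same call. Of 31 members with several probe sets, 16 had the same call in all of them and 15 did not. Of the 107 probe sets 56 fell and 0 rose, against 3.76% and 3.82% of all 41097 single-gene probe sets. Among the 81 with a mean log2 signal above 7, 55 fell, and among the 26 dimmer ones 1 fell. The matching shares of all bright and all dim probe sets are not given here. In 22 members with more than 1 bright probe set, 14 had all of them lower, 4 had none called (ORC2, ORC4, ORC5 and RFC1) and 4 were mixed (DTYMK, DUT, RFC2 and RFC5). In RFC2 the brightest probe set fell (-0.71 ± 0.15) while the other had a difference of -0.37 ± 0.19 (adjusted p = 0.328). In DTYMK a bright probe set with 1316, 949 and 1063 in the control arrays and 317, 388 and 454 in the NS398 arrays fell by more than the brightest (-1.52 ± 0.18), and another, with 238, 265 and 77.5 in the control arrays and 92.7, 185 and 194 in the NS398 arrays, did not pass.

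**Figure D4:**
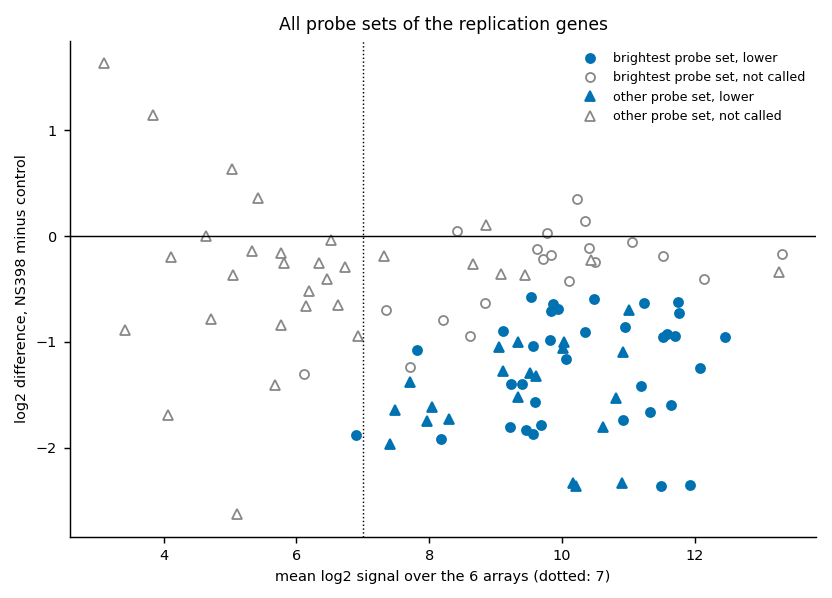
Difference of each of the 107 probe sets (y axis, log2 scale) against its mean log2 signal over the 6 arrays (x axis). Blue symbols fell and grey ones were not called. Left of the dotted line at 7 the differences scatter widely and most lie below 0, but only 1 of 26 fell. Right of it 55 of 81 did.

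Genes of the same pathway outside the set were read from 3 further lists. Of 23 other initiation and fork genes measured 8 fell (34.8%) and 1 rose (4.35%), with a median of -0.52. Of all genes 4.85% fell and 5.23% rose, so the share of the list that rose was near that of all genes. PCLAF, a PCNA partner, had 14117, 10545 and 10960.2 in the control arrays and 2422, 3958 and 3639.6 in the NS398 arrays and fell 3.60-fold (-1.85 ± 0.18, adjusted p = 1.69e-04). TICRR, which helps to load CDC45, fell with a difference of -1.49 ± 0.32 and DSCC1, part of an alternative clamp loader, with -1.17 ± 0.22. CIZ1, a nuclear matrix protein linked to initiation, was the gene that rose, with 1245, 866 and 1292 in the control arrays and 1784, 1787 and 2246 in the NS398 arrays (0.79 ± 0.17, adjusted p = 0.0190); it was not called after median centring or without any single NS398 array. The list had 5 genes lower without NS398 replicate 1. Of 12 genes of chromatin assembly at the fork 6 fell (50%, against the same 4.85% of all genes) and 0 rose, with a median of -0.58. UHRF1, which brings the maintenance methyltransferase to new DNA, fell by 2.01, and the histone chaperone ASF1B by 1.91. CHAF1B, a subunit of the assembly factor CAF-1, had a difference of -1.31 ± 0.29 (adjusted p = 0.0195) and fell as well.

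Few other enzymes of nucleotide synthesis passed the test. Of 28 measured 2 fell (7.14%) and 4 rose (14.3%), with a median of 0.08, shares to be set against 4.85% and 5.23% of all genes. The decreases were CTPS2, a CTP synthase (-0.64 ± 0.14, adjusted p = 0.0203), and DCK, the deoxycytidine kinase of the salvage route (-0.59 ± 0.14, adjusted p = 0.0274). Neither was called without NS398 replicate 1, without NS398 replicate 2, without control replicate 2 or without control replicate 3, and 1 of them was without NS398 replicate 3. The increases were TK2, the mitochondrial thymidine kinase, with 323, 417 and 409 in the control arrays and 569, 764 and 732 in the NS398 arrays (0.84 ± 0.18, adjusted p = 0.0191), and 3 purine synthesis genes, IMPDH2 (0.44 ± 0.10), ADSL (0.45 ± 0.10) and ATIC (0.37 ± 0.09, named after its value was seen). All 4 increases were lost after median centring, which lowers every difference by 0.12, and the number of increases was between 0 and 6 without single arrays. RRM2B, the p53-induced small subunit that can replace RRM2, had 357, 392 and 557 in the control arrays and 452, 483 and 375 in the NS398 arrays with a difference of 0.02 ± 0.21 (95% interval -0.43 to 0.48, named after its value was seen).

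**Figure D5:**
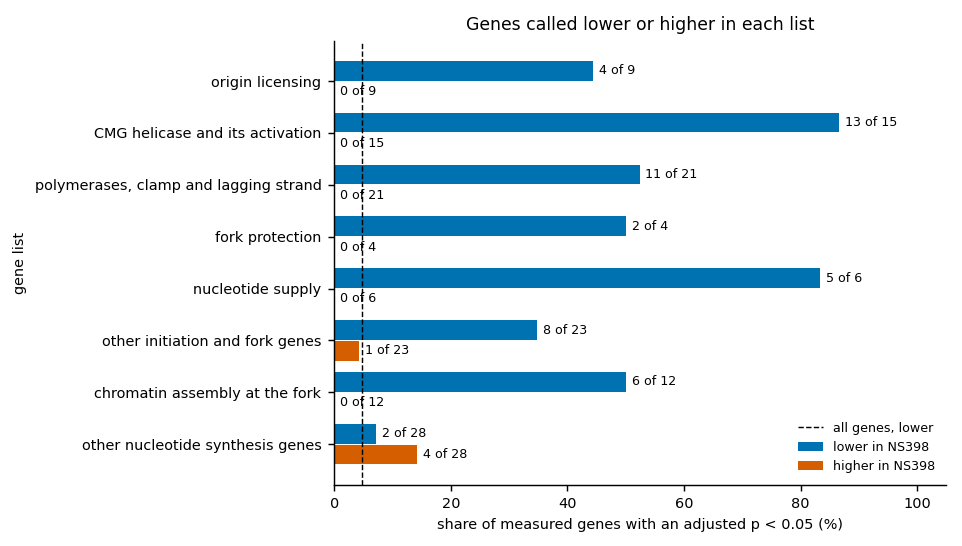
Share of the measured genes of each list that fell (blue) or rose (orange) in NS398 arrays (x axis, percent, with counts beside the bars), for the 5 steps of the set and 3 further lists. The dashed line marks the 4.85% of all genes that fell; the helicase (13 of 15) and nucleotide supply (5 of 6) have the longest bars, and other nucleotide synthesis (2 of 28) lies near the line.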

How the data were processed

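Total RNA of HT29 cells was labelled as biotinylated cRNA and hybridised to HG-U133 Plus 2.0 arrays, 6 samples in all. The deposited values are linear intensity signals, 1 per probe set, which the authors had scaled to a trimmed mean of 500 per array (2% left out at each end). They have the form of MAS 5.0 signals, whereas the study's methods describe gcRMA; the processing notes name affy without a version. As intensities they hold no counts, so the number of arrays limits the precision.

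Groups follow the labels. Signals were taken to log2 and compared with limma 3.58.1 (R 4.3.3; eBayes with variance trend and robust estimation), with Benjamini-Hochberg adjustment of the p-values of all 54675 probe sets together. Of these 41097 (75.2%) name 1 gene, 1801 (3.29%) several and 11777 (21.5%) none; a gene was read from its brightest single-gene probe set. Bright means a mean log2 signal above 7. RNA quality was compared by exact permutation tests (scipy 1.17.1), and figures were drawn with matplotlib 3.10.9 under Python 3.11.15. The script was tested on simulated data. The members and lists were chosen with earlier results of these data known. Values per array are given for up to 4 called members with the largest and 3 with the smallest difference in each step, up to 3 called genes per direction in each further list, and members whose probe sets disagree; other members were named after their values were seen. ADSS2, LRWD1 and MMS22L were not analysed here. Alternatives were other variance priors, scalings, filters on dim probe sets, an offset of 32, array weights, the mean of all probe sets, a replicate block and each array left out. SAM, which the methods name, was not run.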

Additional observations from a re-analysis of the deposited data

How the results depend on the processing

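No replication gene rose in any of the 16 alternative settings, and 17 of the 35 that fell were called lower in all 15 settings other than limma with 1 variance prior (plain eBayes). The number that fell was 35 with array weights, an offset or quantile normalisation, 36 above a mean log2 signal of 4 or after median centring, 38 above 7, 28 with all probe sets averaged, and 21 (without NS398 replicate 1) to 31 with single arrays left out. Plain eBayes called 0 members, 0 in every step and 0 in each further list in both directions. Restricted to a mean log2 signal above 7, an alternative chosen after seeing the data, it called 35 of 53 members lower. In fork protection it then called 1, as the main test did above 7 (1). With all probe sets averaged the median of the members was -0.71, with 7 polymerase and clamp genes, 0 fork protection genes and 2 increases among other nucleotide synthesis genes. Median centring left 0 increases among other nucleotide synthesis and 0 among other initiation genes. Replicate numbers are shared by the groups but do not pair them (correlations of same-numbered deviations of -0.137, -0.0633 and -0.104); with the replicate block 28 members fell, and other nucleotide synthesis had 1 decrease and 2 increases. With single arrays left out the median lay between -1.01 and -0.74, and the genes that fell numbered 2 to 3 in licensing, 7 to 11 in the helicase, 6 to 10 in polymerases and clamp, 2 in fork protection, 4 to 5 in nucleotide supply, 5 to 9 in other initiation (0 to 1 rose), 4 to 6 in chromatin assembly and 0 to 2 in other nucleotide synthesis (0 to 6 rose). Signs turned only in named genes that were not called. With all probe sets averaged ORC2 was -0.17 and RFC5 -0.63 (adjusted p = 0.0175), the other RFC5 probe sets being lower; after median centring ORC2 was -0.092 and PRIM2 -0.075. With single arrays left out ORC2 ran from -0.091 (without control replicate 2) to 0.11, ORC4 from -0.16 to 0.065 (without NS398 replicate 3; 0.01 without control replicate 2), DBF4 from -0.24 to 0.013 (without NS398 replicate 1), PRIM2 from -0.052 (without NS398 replicate 2) to 0.17 and RFC5 from -0.22 (without control replicate 1) to 0.37. The cause was not tested where not given. Dim probe sets limit the reading, as for GINS4 and CLSPN.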
